A study of Mus musculus with 12 samples.

Results

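The link protein gene Hapln1, the bone sialoprotein gene Ibsp and 8 further genes of the hyaluronan and proteoglycan matrix (Hapln4, Spp1, Vcan, Ncan, Bcan, Acan, Tnr and Cd44) were followed in dorsal root ganglia of mice mutant for the transcription factor Maf. Members were all probes that the platform annotation gives to these 10 symbols, which gave 18 of the 25697 probes on the array and covered 9 of the 10 genes. Spp1 has no named probe here. A probe was tested when 6 or more of the 12 arrays detected it at a detection p under 0.05. This held for 9 of the 18 probes and 6 of the 9 genes, against 13177 probes and 9223 genes in the whole series. Hapln1 and Ibsp were chosen because they were lower in mutants in these same arrays, so their values are a description and carry no test. The question was whether the difference extends to the genes whose products share their matrix.

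The mutant group comprised 6 pools of ganglia from 15-day-old mice in which Cre recombinase driven by Isl1 targets Maf (also called c-Maf), and the control group comprised 6 pools from mice of the same age whose genotype is given as wildtype. All mice were of a mixed C57/BL6 and 129Ola background, and each pool held ganglia of lumbar levels 3 to 6. How many mice made a pool, and whether control mice carried Cre or a conditional Maf allele, is not stated in the labels, so p-values measure the spread between these pools. Isl1 is active in sensory neurons and also in cells outside the ganglion, so the Cre line is not limited to the tissue sampled. Total RNA was hybridised to single-colour Illumina BeadChips, and fewer cells of a type cannot be told apart from less RNA per cell in such bulk samples.

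Hyaluronan is a long unbranched sugar polymer that is spun out at the cell surface by hyaluronan synthases. The lecticans, aggrecan (Acan), versican (Vcan), neurocan (Ncan) and brevican (Bcan), are chondroitin sulfate proteoglycans that bind it at their amino-terminal end, and link proteins of the Hapln family lock that bond. Tenascin-R (Tnr) ties lecticans together at their other end, and Cd44 is a cell-surface receptor for hyaluronan. In the central nervous system these components build the perineuronal nets around certain neurons. Bone sialoprotein (Ibsp) and osteopontin (Spp1) are acidic secreted glycoproteins known from mineralised tissue, which bind integrins on cells.

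Between 12822 and 13491 probes were detected per array, and precision is limited by the number of pools. The pools expressed sensory neuron genes as labelled: of 14 listed markers with a named probe 12 were tested, among them Isl1, Pou4f1, Prph and Scn10a, each detected on all 12 arrays. Of the same list, Nefl and Snap25 were detected on no array, and Tubb3 in 3 mutant and 3 control pools. Maf was detected in 0 of 6 mutant pools and 6 of 6 control pools, at 4.57 ± 0.08 and 7.44 ± 0.29 (log2 level, mean ± SD, n = 6 each), a reduction of at least 4.48-fold. Where its single probe lies relative to the targeted part of the gene is not stated. Mutant pool 3 stood apart from the others, with a mean correlation of 0.980 with the other arrays, where the remaining 11 arrays had 0.985 to 0.988. Levels below are log2 intensities after background correction and quantile normalization. The brightest gene of a list is the one with the strongest probe signal, which also depends on how well the probe binds and does not rank transcript amounts. The summed level of a list weighs its brightest probes most.

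The windows around the annotated starts of the genes with the lower values, taken from RefSeq on build GRCm38.p6, are shown because Maf is a DNA-binding protein and both genes were lower in the mutants. Each runs from 250 bases before to 50 bases after a start, on the plus strand. Maf proteins bind an element whose half-site reads TGCTGAC. The Hapln1 window is chr13:89540386-89540685 and the Ibsp window is chr5:104299037-104299336. The Hapln1 gene begins at 89540529, ahead of the start on which its window is built. That window therefore covers fewer than 250 bases before the first base of the gene. Capitals mark a match, on either strand, to TGCTGAC or to the TATA motif TATAAA.
Hapln1 promoter: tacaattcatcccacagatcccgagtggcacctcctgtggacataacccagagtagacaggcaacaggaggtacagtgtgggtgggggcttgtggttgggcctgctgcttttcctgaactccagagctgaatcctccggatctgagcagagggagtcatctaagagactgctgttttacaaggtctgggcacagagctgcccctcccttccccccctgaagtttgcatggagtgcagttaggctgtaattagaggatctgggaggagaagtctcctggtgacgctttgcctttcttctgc
Ibsp promoter: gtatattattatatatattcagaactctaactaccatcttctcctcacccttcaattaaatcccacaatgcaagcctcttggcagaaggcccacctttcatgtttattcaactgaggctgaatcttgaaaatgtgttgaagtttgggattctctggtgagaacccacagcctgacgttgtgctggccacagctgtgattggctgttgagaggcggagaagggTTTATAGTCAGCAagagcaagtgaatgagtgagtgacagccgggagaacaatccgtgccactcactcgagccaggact
The Ibsp window held TGCTGAC on the opposite strand at chr5:104299265-104299271, which begins at position -22 relative to the start. It lay directly after TATAAA, also on the opposite strand, at chr5:104299259-104299264. The Hapln1 window held neither motif. TGCTGAC occurred in 4.67% of all 32851 promoter windows and TATAAA in 13.6%. The AP-1 core TGACTCA, which overlaps TGCTGAC within a full Maf element, occurred in 5.2% of windows and in neither of these. Of the other members, Spp1 (its upstream window), at -211, and Ncan, at -11, held TATAAA, and TGCTGAC was in no window of Spp1, Vcan, Ncan, Bcan, Acan, Tnr or Cd44. Hapln4 has no window in the table. These matches describe letters only, and binding was not measured.

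The link protein Hapln1 (Entrez Gene 12950) lies on chromosome 13 at 89540529 to 89611832. Its probe was detected in every pool of both groups. Levels in the mutant pools were 5.75 at the lowest, 5.91 at the median and 6.09 at the highest, against 6.95, 7.26 and 7.66 in control pools. The groups did not overlap, and the highest mutant pool lay below the lowest control pool. The means were 5.92 ± 0.11 in mutants and 7.29 ± 0.32 in controls (SD, n = 6 each), which makes Hapln1 2.58-fold lower in mutants (log2 difference -1.37, SE 0.13). The unprocessed intensities ran from 103 to 124 in mutant pools and from 162 to 265 in control pools. The spread between mutant pools (SD 0.11) was narrower than that between control pools (SD 0.32), a difference that was not tested. Hapln1 stayed above the detection limit on each mutant array, where Maf did not.

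Ibsp (Entrez Gene 15891), on chromosome 5 at 104299287 to 104311472, has 2 probes. The brighter was detected in 2 of 6 mutant pools (1 and 4) and in 6 of 6 control pools. Its level was 4.96, 5.05 and 5.50 in mutant pools (lowest, median and highest), against 5.65, 5.78 and 6.17 in control pools. The groups did not overlap at this level, although the gap between mutant pool 4 and the lowest control pool was small. The unprocessed intensities did overlap, from 80.5 to 97.3 in mutant pools and from 96.1 to 131 in control pools. The separation of Ibsp therefore depends on the normalization. The means were 5.14 ± 0.22 in mutants and 5.85 ± 0.22 in controls (SD, n = 6 each), a log2 difference of -0.71 (SE 0.12) or 1.63-fold. Because 4 mutant pools did not detect the probe, the size depends on how background is treated. The other Ibsp probe was detected on 0 of 12 arrays, at 4.76 ± 0.15 in mutants and 4.82 ± 0.04 in controls (SD, n = 6 each), so the Ibsp reading rests on a single probe.

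The choice of these genes followed a threshold, an adjusted p under 0.05 in limma with Benjamini-Hochberg adjustment over all 13177 tested probes. It marked 31 probes (0.235%), and by the brightest probe 25 of 9223 genes (0.271%). Hapln1 had an adjusted p of 0.000108 and Ibsp of 0.0173, which are the values that chose them. Nearest to the threshold over all probes were Sphk1 inside it (-0.38, adjusted p = 0.0445) and Plpp1 outside it (-0.41, adjusted p = 0.0629), both by limma. Ibsp was not past it without mutant pool 2 (limma adjusted p = 0.0589), mutant pool 3 (0.0518), mutant pool 5 (0.054) or control pool 6 (0.0616). From 3 pools against 3 within a chip, Ibsp was past it on neither chip, and Hapln1 was not past it on the second (limma adjusted p = 0.366).

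**Figure D1:**
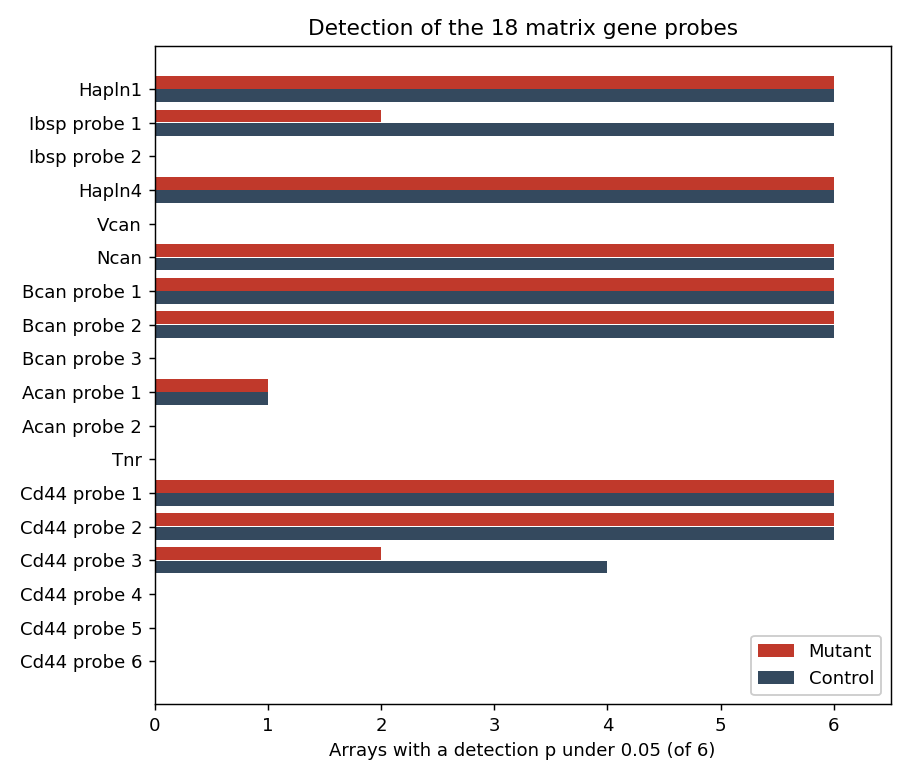
Number of arrays, of 6 per group, on which each of the 18 probes was detected (horizontal axis), with mutant bars above control bars and probes of a gene numbered by brightness. Hapln1, Hapln4, Ncan, 2 Bcan probes and 2 Cd44 probes were detected on every array, Ibsp probe 1 in 2 mutant and 6 control pools, and 8 probes on no array.

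Of the 8 partner genes, 7 had a named probe and 4 were tested (Hapln4, Ncan, Bcan and Cd44). Called by limma were 0 of these 4 genes, against a background of 0.271% of genes, and 2 of their 7 tested probes had an unadjusted p under 0.05, where 6.34% of all tested probes did. Of these 7 probes 4 were lower and 3 higher in mutants. Mutant and control pools overlapped in all 7 partner probes, and 0.713% of all tested probes had groups that did not overlap.

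Hapln4 encodes the brain link protein Bral2, of the same family as Hapln1. It was detected in all 12 pools, at 9.10, 9.42 and 9.75 in mutant pools (lowest, median and highest) and at 9.42, 9.62 and 10.08 in control pools. The ranges overlapped, with 3 of 6 mutant pools below every control pool. The means were 9.41 ± 0.23 in mutants and 9.67 ± 0.22 in controls (SD, n = 6 each). The log2 difference was -0.27 (SE 0.12, limma adjusted p = 0.783), and its unadjusted 95% interval ran from -0.53 to -0.0043. Its unadjusted p was 0.0468 in the limma fit.

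Among the lecticans, Bcan, which encodes brevican, had 2 tested probes. The brighter stood at 8.66, 8.92 and 9.10 in mutant pools (lowest, median and highest) and at 8.97, 9.17 and 9.34 in control pools. Mutant and control pools overlapped, and 4 of 6 mutant pools lay below every control pool. The means were 8.91 ± 0.15 in mutants and 9.17 ± 0.13 in controls (SD, n = 6 each), a log2 difference of -0.26 (SE 0.09, limma adjusted p = 0.525, unadjusted 95% interval -0.44 to -0.07). The second probe stood at -0.15 (SE 0.09, limma adjusted p = 0.872), the same direction at a smaller size, and the dimmest was detected on 0 of 12 arrays. Ncan, which encodes neurocan, was detected in all pools and overlapped widely, at 7.81 ± 0.23 in mutants and 7.75 ± 0.31 in controls (SD, n = 6 each). Its log2 difference was 0.06 (SE 0.14, limma adjusted p = 0.98, unadjusted 95% interval -0.25 to 0.36).

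The remaining matrix partners were at or near background, so a difference in them was not measurable here. Vcan, for versican, was detected on 0 of 12 arrays, at 4.55 ± 0.03 in mutants and 4.59 ± 0.12 in controls (SD, n = 6 each). Tnr, for tenascin-R, was also detected on 0 of 12 arrays, at 4.65 ± 0.06 in mutants and 4.64 ± 0.10 in controls (SD, n = 6 each). The brighter of the 2 Acan probes, for aggrecan, was detected in 1 of 6 mutant pools and 1 of 6 control pools, pool 1 in either group, at 4.96 ± 0.19 and 5.09 ± 0.20 (SD, n = 6 each). The other Acan probe was detected on none. These probes were below the detection limit, which does not show that the transcripts were absent.

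The hyaluronan receptor Cd44 has 6 probes, of which 3 were tested. The brightest stood at 8.33, 8.50 and 8.93 in mutant pools (lowest, median and highest) and at 8.18, 8.38 and 8.57 in control pools. Mutant and control pools overlapped, and 2 of 6 mutant pools, pools 1 and 3, lay above every control pool. The means were 8.59 ± 0.24 in mutants and 8.38 ± 0.16 in controls (SD, n = 6 each). The log2 difference was 0.21 (SE 0.11, limma adjusted p = 0.853, unadjusted 95% interval -0.02 to 0.45). The next brightest probes, 2 and 3, stood at -0.02 (SE 0.08) and 0.01 (SE 0.14), and the other 3 were detected on 0 of 12 arrays. Probes 2 and 3 were dim, at 5.61 and 5.29 in mutants and 5.63 and 5.28 in controls. Probe 3 was detected in 2 of 6 mutant and 4 of 6 control pools. Their signs so near the detection limit say little about the brightest probe. The brightest probe is annotated to another transcript of the gene than the other 5, and the 3 tested probes did not share a direction.

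**Figure D2:**
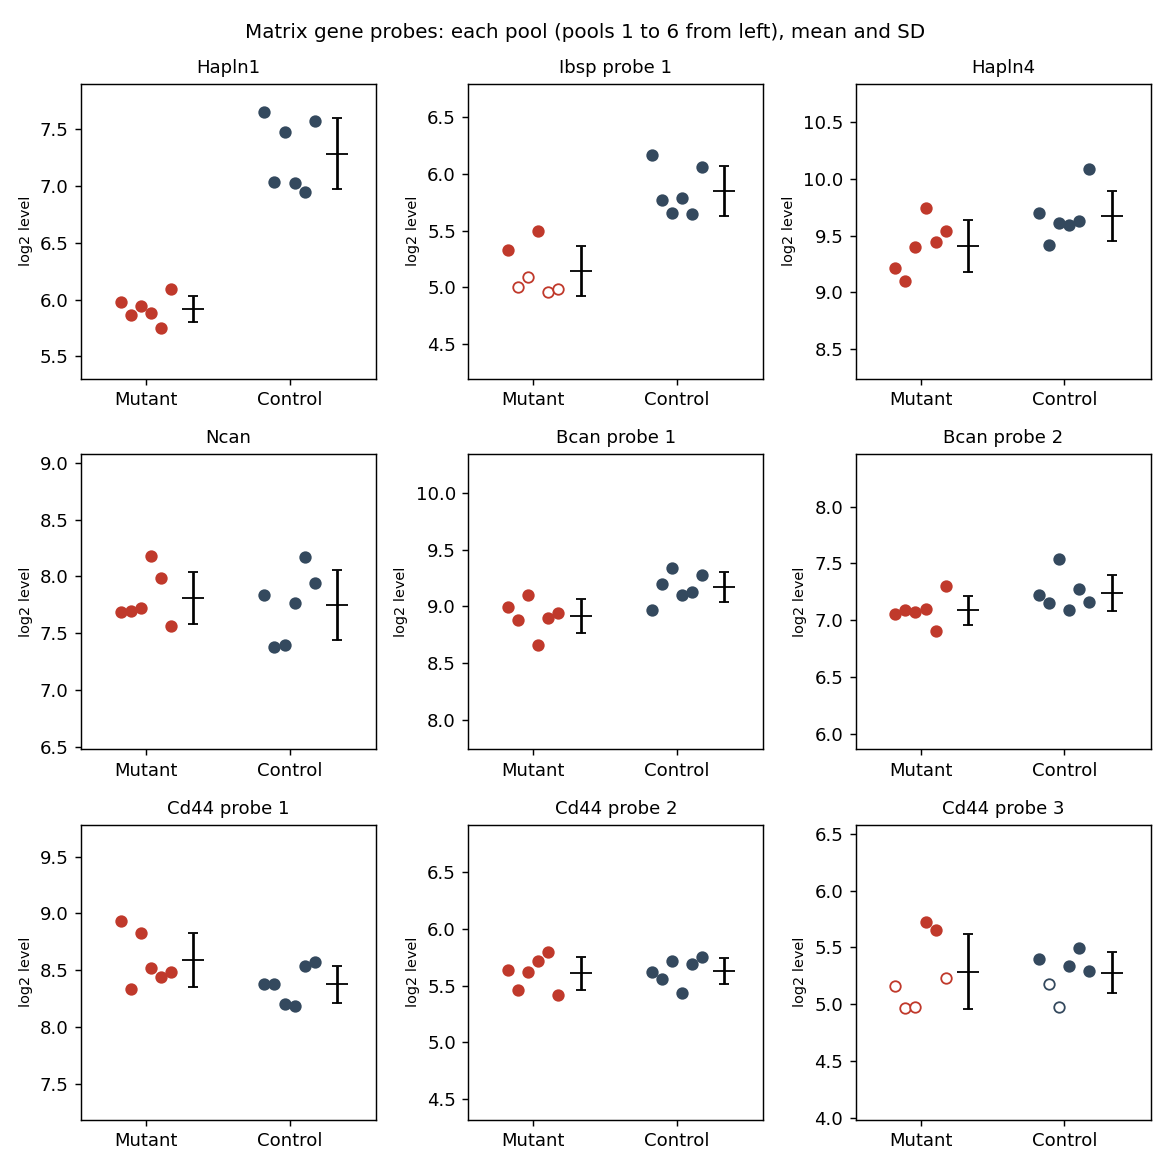
Log2 level (vertical axis, each panel spanning the same range) of the 9 tested probes in each mutant pool (left) and control pool (right), with pools 1 to 6 from left within a group, open circles for pools without detection, and bars for mean ± SD. Hapln1 and Ibsp separate the groups, while the probes of Hapln4, Ncan, Bcan and Cd44 overlap.

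Replicates 1 to 3 of both groups lay on one BeadChip and replicates 4 to 6 on another, by the array identifiers in the labels. The Hapln1 difference was -1.46 within the first chip and -1.27 within the second, and the Ibsp difference was -0.72 and -0.69. Arrays of both chips took part in choosing these genes, so the like values are no replication. For Hapln4 the values were -0.34 and -0.19, and for the brighter Bcan probe -0.18 and -0.34. Cd44 stood at 0.38 in the first set of pools and 0.05 in the second, and Ncan at 0.17 and -0.05. In a limma test of genotype by chip 0 of 9 member probes passed, against 0% of all tested probes, and 0 of 9 had an unadjusted p under 0.05, where 2.82% of all tested probes did. The chip difference itself, a contrast that played no part in choosing the genes, passed for 0 of 9 member probes in limma, with a background of 0%, and 3 of 9 had an unadjusted p under 0.05, where 8.54% of all tested probes did. The farthest were Cd44 probe 3 (0.35, limma adjusted p = 0.375) and Ncan (0.32, limma adjusted p = 0.481), both higher on the second chip. Hapln1 differed between chips by -0.11 (limma adjusted p = 0.876).

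**Figure D3:**
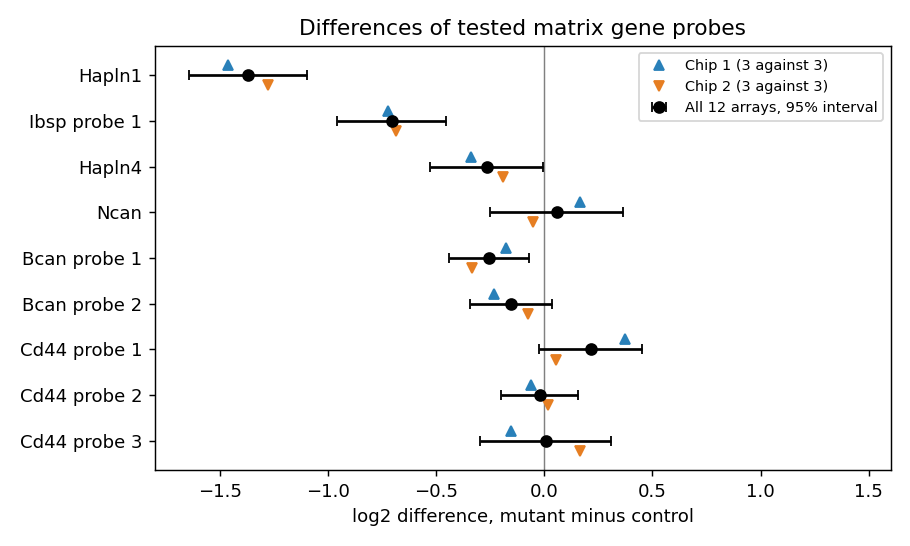
Log2 difference, mutant minus control (horizontal axis), of the 9 tested probes over all 12 arrays with unadjusted 95% intervals, and on each chip separately (triangles, 3 pools against 3). Hapln1 and Ibsp, chosen on these same arrays, lie at -1.37 and -0.71. Their like values on both chips follow in part from that choice. The partner probes lie between -0.27 and 0.21.

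Other genes that make, bind, modify or cut this matrix were read from lists of 141 genes, members left out, of which 132 had a named probe and 76 were tested. Called by limma were 0 of these 76 genes, against 0.271% of all genes. An unadjusted p under 0.05 was found for 4 of the 76 (5.26%), and for 6.51% of all tested genes. The genes split into 36 lower and 40 higher, and their median difference was 0.0040, where that of all 9223 tested genes was 0.0030. Single differences ran from -0.54 to 0.33.

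Of the other link proteins, Hapln3 stood at 5.80 in mutants and 5.70 in controls, a difference of 0.10 (limma adjusted p = 0.959), and Hapln2 was detected on no array. Of the hyaluronan synthases, Has3 (-0.09, limma adjusted p = 0.941) was tested, Has1 was detected on 1 array and Has2 on none. Ugp2 (0.10), which supplies UDP-glucose, moved farthest among the synthesis genes, and Uap1 (0.04) was the brightest. In the turnover list 6 genes were tested, with the hyaluronidase Hyal2 at -0.08 as the brightest and Hyal3 at -0.23 as the farthest from 0. All 5 tested genes of the hyaluronan-binding list had a lower mean in mutants, and none passed. Lyve1, a hyaluronan receptor of lymphatic endothelium and some macrophages, was the farthest of them, at 5.83 in mutants and 6.34 in controls (-0.52, SE 0.20, limma adjusted p = 0.677), and Habp4 (-0.19) was the brightest.

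The enzymes that build chondroitin sulfate chains split into 3 lower and 8 higher, with Chpf, a chondroitin polymerising factor, at -0.26 and the sulfotransferase Chst15 at -0.22. Among other proteins that carry such chains, serglycin (Srgn), the proteoglycan of secretory granules in blood cells, stood at 5.54 in mutants and 6.08 in controls (-0.54, SE 0.13, limma adjusted p = 0.196), the farthest from 0 of the 76 genes. Aplp2 (0.0046) was the brightest of that list. Tenascin-C (Tnc) stood at 0.33 (SE 0.17, limma adjusted p = 0.839) and the receptor phosphatase Ptprs, which binds chondroitin sulfate, at 0.03. Of the genes for integrin subunits 9 had a named probe and 3 were tested, all within 0.05 of 0, with Itgb5 at -0.04. Itgav, detected in 2 mutant and 2 control pools, and Itgb3, in 4 and 1, were among those not tested.

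In the small leucine-rich proteoglycans decorin (Dcn) stood at -0.02 and chondroadherin (Chad) at 0.29, and 0 of 7 passed. In the heparan sulfate proteoglycans glypican-1 (Gpc1) stood at -0.02 and glypican-5 (Gpc5) at -0.21 (SE 0.07, limma adjusted p = 0.532), and 0 of 9 passed. Of 9 tested proteases and inhibitors 0 passed. The membrane protease Mmp14 moved farthest there, at 9.97 in mutants and 10.31 in controls (-0.34, SE 0.12, limma adjusted p = 0.55), and the inhibitor Timp2 (-0.15) was the brightest.

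**Figure D4:**
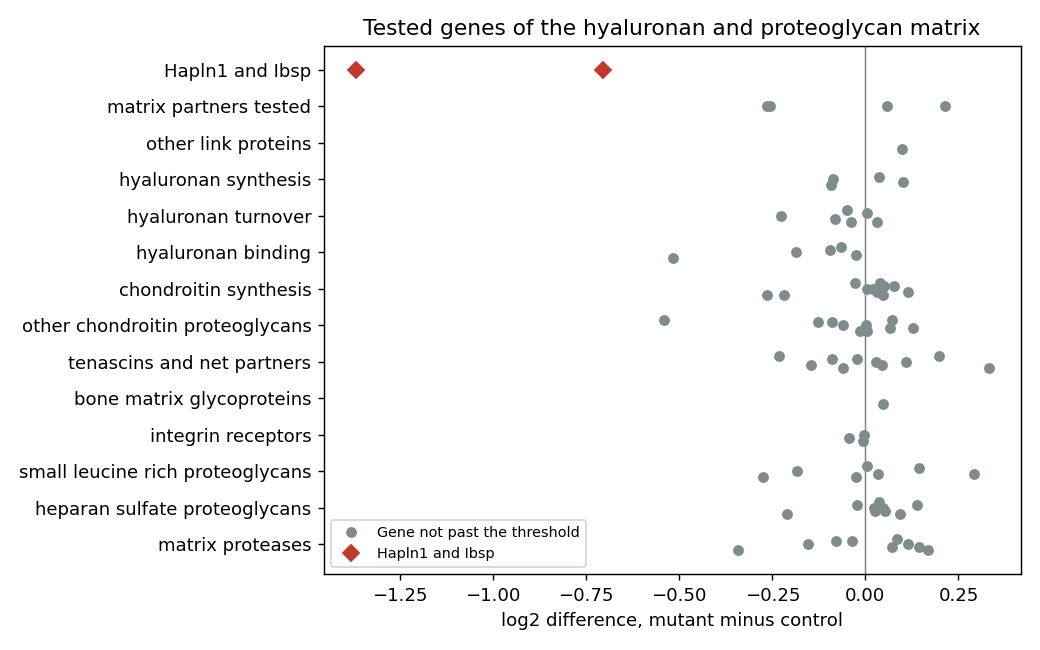
Log2 difference, mutant minus control (horizontal axis), of each tested gene by its brightest probe, grouped by role in the matrix. Hapln1 and Ibsp (diamonds, at -1.37 and -0.71) were chosen for being lower in this comparison. The 76 tested genes of the other lists range from -0.54 to 0.33, and 0 of these and of the 4 tested partners passed the threshold.

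Among protein-coding genes in RefSeq order (GRCm38.p6), Hapln1 and Vcan are neighbours on chromosome 13, as Hapln4 and Ncan are on chromosome 8. Maf lies far from them on chromosome 8, at 115703253 to 115706894, where Hapln4 lies at 70083529 to 70090862. Before Hapln1 lies Edil3, an integrin-binding matrix protein gene, which stood at 5.96 ± 0.31 in mutants and 6.00 ± 0.23 in controls (SD, n = 6 each, limma adjusted p = 0.987). Vcan, after it, was not detected. Ibsp lies in a row of acidic bone and tooth matrix genes between Dmp1 and Mepe. Dmp1 was detected on no array, and Mepe stood at 5.52 ± 0.24 in mutants and 5.47 ± 0.19 in controls (SD, n = 6 each, difference 0.05, limma adjusted p = 0.979). Dspp of the same group was not detected. Next to Bcan, Nes stood at -0.05. Beyond Vcan, Xrcc4 stood at 0.01, and beside Cd44 and Tnr, Slc1a2 stood at -0.04 and Cop1 at -0.0023, none past the threshold in limma. Tm6sf2, Rfxank, Isg20 and Pdhx, beside Hapln4, Ncan, Acan and Cd44, were not tested. Pkd2, beside Spp1, and Gm31493, beside Tnr, have no named probe here.

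The genes whose profile over the 12 arrays came nearest to that of Hapln1 were found by the root mean square difference of log2 values centred on each gene's mean. They were the potassium channel subunit gene Kcng4 (0.19), the perinatal myosin gene Myh8 (0.23), Lgi2 (0.28), Calb2, which encodes calretinin (0.31), and Slc35d3 (0.32). The distance of a flat profile from Hapln1 would be 0.72. Nearest to Ibsp, for which a flat profile lies at 0.41, were Ntng1 (0.17), Serpinb1a (0.17), Vstm2b (0.20), Ccdc172 (0.20) and Rgs6 (0.20). All 10 genes are among the 25 called in the same comparison, which this measure of likeness favours.

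Cartilage and bone, which adjoin the ganglia, express Hapln1, Acan and Ibsp, so their markers were read beside these values. Of 11 cartilage markers with a named probe 2 were tested, with Col2a1, the cartilage collagen, at 5.60 in mutants and 5.56 in controls (0.05, limma adjusted p = 0.985) and Comp at 0.11. Col9a1, Col10a1, Matn1, Matn3, Cnmd and Sox9 were detected on no array. The summed level of the tested cartilage markers (log2 of the sum) ran from 6.95 to 7.40 in mutant pools and from 6.57 to 7.52 in control pools. Of 11 bone markers 5 were tested, 1 lower and 4 higher, and 0 passed. The osteoblast genes Bglap, Sp7 and Ifitm5 were detected on no array. Bglap2 was detected in 4 of 6 mutant and 3 of 6 control pools, at 5.52 and 5.34 (0.18, limma adjusted p = 0.93). Alpl moved farthest, at 6.75 in mutants and 6.44 in controls (0.31, limma adjusted p = 0.267). The brightest was the protease Ctsk (0.04). The summed level of the tested bone markers ran from 9.95 to 10.17 in mutant pools and from 9.94 to 10.15 in control pools.

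Other cell types of the ganglion also bear on the partner genes. In the fibroblast and meninges list 9 of 10 tested genes had a lower mean in mutants and 0 passed (median -0.20), with Ptgds at -0.50 (SE 0.46) as the farthest and Dcn as the brightest. Its summed level ran from 13.74 to 13.92 in mutant pools and from 13.64 to 14.02 in control pools. In the Schwann cell and satellite glia list 6 of 8 were lower and 0 passed (median -0.22), with Pmp2 at -0.64 (SE 0.27) and Pmp22 at 0.06. Among the lower genes, S100b stood at -0.36 (SE 0.08, limma adjusted p = 0.141) and Mbp at -0.25 (SE 0.08, limma adjusted p = 0.525). The summed level of this list ran from 14.23 to 14.54 in mutant pools and from 14.27 to 14.56 in control pools. In the macrophage list 8 of 9 were higher and 0 passed (median 0.22), with Lyz2 at 0.56 (limma adjusted p = 0.142) and Lyz1 at 0.52. The only lower gene was Mrc1, at -0.35 (SE 0.16, limma adjusted p = 0.783). The summed level of this list ran from 11.08 to 11.63 in mutant pools and from 10.71 to 11.27 in control pools. That sum weighs Lyz1 most, at 10.59 in mutants and 10.07 in controls, and does not count macrophages. The part of these cells in the lower Bcan and Hapln4 means and the higher Cd44 mean was not tested.

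The sensory neuron list had a median difference of -0.0060, with 6 tested genes lower and 6 higher and 0 past the threshold. Nefm (-0.09) was the brightest and Nefh (-0.30, limma adjusted p = 0.131) the farthest from 0. Isl1, which drives Cre in the mutants, stood almost as far, at -0.30 (SE 0.13, limma adjusted p = 0.771). The summed level of the sensory neuron list ran from 15.59 to 15.79 in mutant pools and from 15.68 to 15.85 in control pools. Of 11 spinal cord markers 3 were tested and 0 passed. Gfap, Olig2, Pax2 and Lhx1 were detected on no array. Aqp4 was detected in every pool, at 7.68 in mutants and 7.76 in controls, and Slc1a2 in 3 mutant and 4 control pools. Slc17a7, at 9.60 in mutants and 9.77 in controls (-0.17), was both the brightest and the farthest from 0. The summed level of the tested spinal cord markers ran from 9.52 to 10.42 in mutant pools and from 9.70 to 10.70 in control pools. That sum is mostly Slc17a7, so it does not measure spinal cord content. Whether the Slc17a7 and Aqp4 signal came from spinal cord or from ganglion cells was not tested. Of 4 tested endothelial genes 0 passed, with Emcn at -0.02 and Pecam1 at 0.19, and their summed level ran from 9.29 to 9.51 in mutant pools and from 9.21 to 9.63 in control pools.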

How the data were processed

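Gene expression was measured on single-colour Illumina mouse BeadChips, 12 arrays in all. Per the submitters' processing notes the deposited intensity values came from GenomeStudio, with no version given. The intensity table is neither background-subtracted nor normalized between arrays, as its values show. Per the file headers each array also has a column of detection p-values, taken to compare a probe with the negative controls of its array. A deposited table of processed intensity values, of unstated making, reaches below 0 on a linear scale with column medians of 24.1 to 24.2. It ranked probes as the arrays did (Spearman correlation 1 on all 12) and served as an alternative.

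Log2 levels were computed with neqc in limma 3.58.1 (R 4.3.3), with normexp at offset 16 and quantile normalization. Detection at p under 0.05 on at least 6 arrays left 13177 of 25697 probes. The platform annotation named 1 gene for 23978 probes and does not list 1719 probes. A gene was represented by its brightest tested probe. Mutant and control pools were compared with limma on genotype alone, with Benjamini-Hochberg adjustment over all tested probes. A lower bound on a fold set the brighter group's mean against the lowest detected signal of each array. Group and replicate came from sample titles, and chips from array identifiers. Genes named were Maf, the members, the brightest and farthest-moved gene of each list, called genes, chromosome neighbours among protein-coding genes and the 5 nearest profiles to Hapln1 and to Ibsp; a few synthases, markers and list members were named after their values were seen. The members and lists were chosen with earlier results of these data known. Alternatives changed the background offset, normalization, table, detection filter, array weights, variance prior, chip and replicate blocks, and left out each array.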

Additional observations from a re-analysis of the deposited data

Results flagged for a closer look

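Of 38 groups of 6 values examined (18 member probes and Maf, in mutant and in control pools), 4 held a pool whose value stood apart. By chance about 1 in 20 groups, here 1.9, would be picked out in this manner. All 4 were values of probes that no array detected. Vcan stood at 4.616 in mutant pool 6, above the other mutant pools. The dimmer Acan probe stood at 4.676 in mutant pool 4, above the other mutant pools. Cd44 probe 5 stood at 5.054 in mutant pool 1, above the other mutant pools, and at 4.455 in control pool 6, below the other control pools. No value of Hapln1, Ibsp, Hapln4, Ncan or Bcan stood apart in this way.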

How the results depend on the processing

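The count of called partner genes and that of called wider matrix genes was 0 in each of the 23 alternatives, and no member probe was called for a chip difference or for genotype by chip in the 19 that tested them. The direction of Hapln1 (range -1.65 to -1.01) and Ibsp (-1.14 to -0.40) held in every alternative that gave a value. Each alternative reused arrays on which these genes were chosen, so the kept direction follows largely from that choice and is no test. The Hapln1 difference was -1.01 and that of Ibsp -0.40 with normexp at offset 50, and -1.65 and -1.14 with the deposited processed table; the larger offset pulls dim values together by construction. At a detection p under 0.01 on 6 arrays the Ibsp probe was not tested. Hapln4 stayed between -0.34 and -0.18, the brighter Bcan probe between -0.34 and -0.18 and the brightest Cd44 probe between 0.05 and 0.38. Changes of sign, all among uncalled values, were seen for Ncan (-0.051 within chip 2), Cd44 probe 2 (0.018 within chip 2) and Cd44 probe 3 (-0.15 within chip 1). With 1 array left out, Ncan ran from -0.017 to 0.142, Cd44 probe 2 from -0.059 to 0.017 and Cd44 probe 3 from -0.082 to 0.071. Within chip 1 alone 4 probes were called and within chip 2 alone 1, in place of 31, with 3 pools a group; leaving out 1 array gave 21 to 36. With the replicate block 23 probes were called, and no member gene changed its side of the threshold. Same-numbered pools correlated from -0.12 to 0.19 in their deviations from group means, and 1 of 6 matched its own number best, so the numbers were not taken to pair the pools. Without mutant pool 3 the differences were -1.37 for Hapln1 and -0.70 for Ibsp. Signal near background limits what can be said of Ibsp, Acan, Vcan and Tnr.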

Other observations

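Control pools 1, 3 and 6 had Hapln1 levels of 7.66, 7.48 and 7.57, and control pools 2, 4 and 5 had 7.04, 7.03 and 6.95. Ibsp was highest in control pools 1 and 6, at 6.17 and 6.07, and lay between 5.65 and 5.78 in the other control pools. Maf was also highest in these 2 pools, at 7.69 and 7.87, with 7.11 to 7.41 in the others. These 3 sets of values are a description of 6 pools, picked out after the values were seen.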
